A study of Homo sapiens with 15 samples.

Results

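The transcripts described are those of 10 genes that set the fate of pyruvate, namely the lactate dehydrogenases LDHA and LDHB, the pyruvate dehydrogenase kinases PDK1, PDK2, PDK3 and PDK4, the pyruvate dehydrogenase subunit PDHA1, the pyruvate dehydrogenase phosphatase PDP1, and the mitochondrial pyruvate carrier subunits MPC1 and MPC2. They were chosen by gene symbol, and all 10 were listed both in the table of MRC5 cells and in that of H196 cells, among 17138 genes listed in either. The fibroblast was MRC5, purchased and described by the study as a primary human lung fibroblast. Its partners were 2 small cell lung cancer (SCLC) lines, H69 of the neuroendocrine (NE) and H196 of the non-NE type. RNA was sequenced from MRC5 cells cultured alone (MRC5_Mo), MRC5 cells co-cultured with H69 (MRC5_coH69) or with H196 (MRC5_coH196), H196 cells cultured alone (H196_Mo), and H196 cells co-cultured with MRC5 (H196_Co), with 3 libraries in each of the 5 groups and 15 in all. Co-culture ran for 7 days across a transwell membrane, so each library was made from the cells of 1 chamber, and none of the cells carried an introduced gene or drug. Each cell type was represented by 1 line. The study grew SCLC lines in RPMI medium and MRC5 in MEM, so that cell line and medium cannot be told apart where H196 is set against MRC5. The medium of the co-cultures is not stated, so a difference in medium between co-culture and mono-culture may also be part of those comparisons. The labels do not say whether the libraries of a group came from separate cultures, and the p-values measure the spread between these libraries, which may be technical.

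Pyruvate is the end product of glycolysis in the cytosol. Lactate dehydrogenase, a tetramer of LDHA and LDHB chains, interconverts pyruvate and lactate, and LDHA-rich forms are the ones found in glycolytic tissues. The MPC1 and MPC2 proteins form the carrier that takes pyruvate into mitochondria, where the pyruvate dehydrogenase (PDH) complex makes acetyl-CoA from it. The PDK enzymes phosphorylate PDHA1 and switch the complex off, PDP1 removes the phosphate and switches it on, and LDHA and PDK1 are textbook targets of the hypoxia-inducible factor HIF-1.

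The sequences upstream of LDHA, PDK3 and LDHB are shown as examples, 2 of genes called higher in MRC5_coH196 and 1 of a gene that was not. PDK1 and MPC2, also called higher, are described without their sequences. Each is the stretch of 250 bases before the most upstream start site listed for the gene in the RefSeq set used. It is read 5′ to 3′ on the strand of the gene in GRCh38.p14. The stretches lie at chr11:18394313-18394562 (plus strand) for LDHA, chrX:24465036-24465285 (plus strand) for PDK3 and chr12:21657843-21658092 (minus strand) for LDHB. In the gene spans given below, from GRCh38.p13, PDK3 starts at 24448139 and LDHB, on the minus strand, ends at 21657971. The PDK3 stretch thus lies inside that span, and the LDHB stretch partly inside its own. The spans of PDK1 and PDK2 also begin before the start sites used. Capitals mark ACGTG or GCGTG, the letters at the core of HIF-1 binding sites, on either strand, so that CACGT and CACGC are marked too. The letters ACGTG also lie within CACGTG, the E-box bound by MYC and other factors, which reads as ACGTG on both strands.
LDHA: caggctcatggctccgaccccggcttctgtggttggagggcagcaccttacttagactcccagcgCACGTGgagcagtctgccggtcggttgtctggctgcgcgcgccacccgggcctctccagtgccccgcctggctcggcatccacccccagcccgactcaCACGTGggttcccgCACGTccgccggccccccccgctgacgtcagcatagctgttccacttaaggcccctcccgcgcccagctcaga
PDK3: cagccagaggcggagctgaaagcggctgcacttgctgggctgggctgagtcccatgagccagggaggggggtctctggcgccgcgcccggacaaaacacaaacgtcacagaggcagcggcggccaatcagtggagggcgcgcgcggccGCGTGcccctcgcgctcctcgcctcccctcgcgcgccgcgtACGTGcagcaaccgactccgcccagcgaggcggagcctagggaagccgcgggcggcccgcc
LDHB: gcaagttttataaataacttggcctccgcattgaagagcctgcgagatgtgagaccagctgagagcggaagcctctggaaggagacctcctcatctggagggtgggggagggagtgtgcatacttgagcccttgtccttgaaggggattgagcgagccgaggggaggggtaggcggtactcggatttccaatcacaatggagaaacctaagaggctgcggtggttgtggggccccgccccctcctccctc
The LDHA stretch held 5 matches to ACGTG, counted on both strands, and 2 copies of CACGTG. The stretch before the other LDHA start site in this set, start number 2, had 0 matches to ACGTG, 1 to GCGTG and 0 copies of CACGTG. The PDK3 stretch held 1 match to ACGTG and 1 to GCGTG, and the LDHB stretch held neither. Of 27305 such stretches, 1 for each gene in the RefSeq set, 18.6% held ACGTG, 31.9% held GCGTG, 43.1% held at least one of them and 6.46% held CACGTG. At least 3 matches to ACGTG and GCGTG together were held by 7.84%. RefSeq stretches were found for 9 of the 10 genes. Of these 9, 4 held ACGTG or GCGTG (LDHA, PDK3, PDHA1 and MPC1), beside the 43.1% of all such stretches. MPC2, also called higher in MRC5_coH196, and PDK4 had neither. PDK1 had 2 start sites in this set, of which the upstream one had no match and the other had 2 matches to ACGTG. PDK2, which was not called higher, also had none at its most upstream start and had 2 matches to ACGTG and 1 to GCGTG at the next. PDHA1 and MPC1, which were not called higher in any co-culture, had 3 and 2 matches to GCGTG. A match is a run of letters and was not tested as a binding site. The study reported unchanged protein levels of the HIF-1α subunit in H196 cells co-cultured with MRC5. HIF-1 activity was not tested here.

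Expected counts summed to between 16073597 and 19170560 in a library. The 7 fibroblast markers examined all reached 1 FPKM in every MRC5 group. Their summed level was 5075 to 5654 FPKM in MRC5_Mo, 5828 to 6028 in MRC5_coH69 and 2460 to 2607 in MRC5_coH196, so that the sum moved with the co-culture that also moved most of the 10 genes, and its part in their values was not tested. The lower sum in MRC5_coH196 came mostly from the collagens, with COL1A1 at 739 to 809.8 FPKM against 2524 to 2735 in MRC5_Mo, while DCN (190.3 to 203 against 189 to 222) and LUM (90.7 to 101 against 79.0 to 94.7) overlapped and PDGFRB was higher (82.2 to 87.4 against 58.4 to 63.3). In H196 libraries none of these markers reached 1 FPKM. The neuronal vesicle gene SYP was at 7.61 to 8.96 FPKM in H196 and at most 0.18 in MRC5, with 0 to 0.13 in MRC5_coH196, and COL1A2 was at most 0.01 in H196_Co, so that RNA of the partner line was at or near 0 in both co-cultures by these genes. H196 carried YAP1, a marker of non-NE SCLC, at 38.9 to 45.9 FPKM alone and 31.5 to 35.8 beside MRC5. MRC5 held more of it, at 54.05 to 63.4 FPKM, so that YAP1 does not set H196 apart from the fibroblast. Of the 7 NE markers examined, SYP and DLL3 (3.58 to 5.05 FPKM) reached 1 FPKM in H196. In bulk libraries fewer cells with a transcript and less of it per cell cannot be told apart.

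The comparison of MRC5_coH196 with MRC5_Mo asks how the fibroblast changed beside non-NE SCLC cells. LDHA, PDK1, PDK3 and MPC2 rose in it, MPC1 fell, and LDHB, PDK2 and PDHA1 fell by smaller amounts. A differentially expressed gene (DEG) had an adjusted p under 0.05 in edgeR's quasi-likelihood test and a log2 fold change above 0.58 in size. PDK4 passed the filter on low counts through MRC5_coH196 alone, the group where it was high, and it is therefore left out of the counts of genes called and described by its counts. By this rule 5 of the other 9 genes were DEGs in MRC5_coH196 against MRC5_Mo, 4 higher and 1 lower, where 31.9% of the 12819 genes tested were DEGs (17.2% higher and 14.7% lower). By the adjusted p alone, 8 of the 9 passed, where 74.3% of all genes did. The median log2 fold change of the 9 genes was 0.00, as over all genes tested, and the median of its size was 0.64 beside 0.39.

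Beside NE cells the fibroblast moved far less. None of the 9 genes was a DEG in MRC5_coH69 against MRC5_Mo, where 0.554% of all genes tested were DEGs in edgeR, and DESeq2 called none of them either. By the adjusted p alone 2 of the 9 passed, LDHA and MPC2, where 6.7% of all genes did, and 3 of the 9 had an unadjusted p under 0.05, with LDHB as the third. This comparison and the previous one share the MRC5_Mo libraries. Set directly against MRC5_coH69, MRC5_coH196 had the same 5 genes as DEGs in the same directions, where 28.2% of all genes tested were DEGs (15.2% higher and 13.1% lower). By the adjusted p alone 8 of the 9 passed there, where 72.3% of all genes did.

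In H196 cells beside MRC5 the change was smaller and held fewer of the genes. Of the 9 genes tested in H196_Co against H196_Mo, 2 were DEGs, LDHA and PDK1, both higher, where 3.86% of the 12806 genes tested were DEGs and 3.26% were DEGs that were higher. By the adjusted p alone 4 of the 9 passed, the other two being PDK3 (higher) and PDP1 (lower), where 19.8% of all genes did. PDK4 had too few counts in H196 to be tested.

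**Figure D1:**
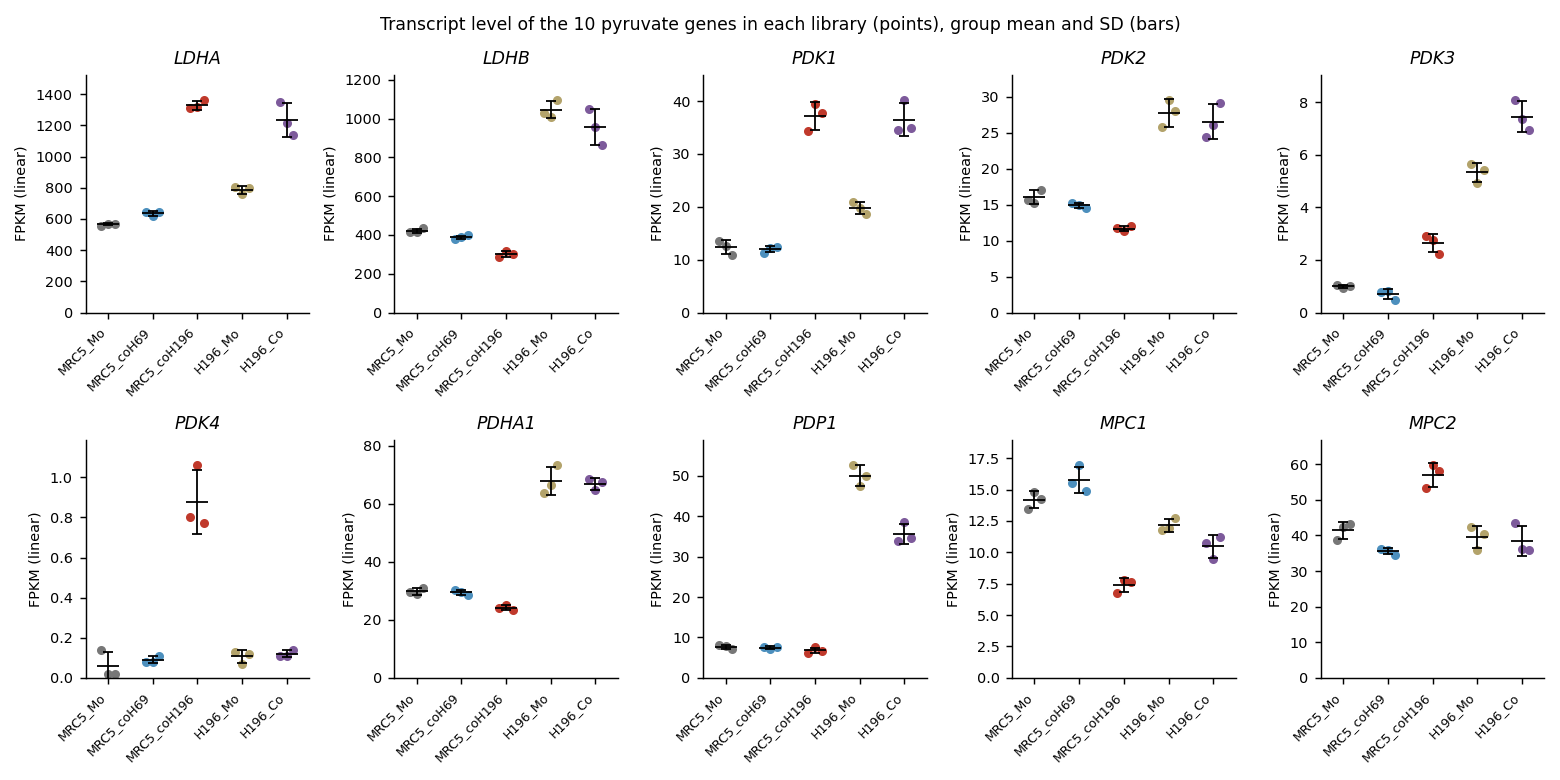
FPKM on a linear axis for the 10 genes, with 1 point per library and the mean and SD of each of the 5 groups. The MRC5_coH196 points of LDHA lie between 1308 and 1362 FPKM, above all other MRC5 points, whereas the points of PDP1 overlap among the 3 MRC5 groups and lie higher in H196.

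LDHA, the muscle-type lactate dehydrogenase chain, was the most abundant of the 10 genes in every MRC5 library. FPKM, fragments per kilobase of transcript scaled to library size, allows levels to be compared between genes. LDHA was at 557, 571 and 571 FPKM in MRC5_Mo, at 644, 619.8 and 646 in MRC5_coH69, and at 1308, 1315 and 1362 in MRC5_coH196. In H196 cells it was at 805, 759 and 797 FPKM alone and at 1349.9, 1215 and 1137 beside MRC5. In FPKM the groups were thus ordered from MRC5_coH196 through H196_Co, H196_Mo and MRC5_coH69 to MRC5_Mo, and only the upper pair overlapped. The order between the lines depended on the scale. In CPM, counts relative to library totals with TMM scaling over all 15 libraries, LDHA was at 3097 to 3305 in MRC5_coH196 and at 1924 to 2301 in H196_Co, which did not overlap, and H196_Mo, at 1215 to 1275, lay below MRC5_coH69 (1349 to 1397) and overlapped MRC5_Mo (1199.7 to 1228). The log2 fold change of LDHA on counts was 1.40 ± 0.04 (SE, adjusted p = 3.12e-20) in MRC5_coH196 against MRC5_Mo, a 2.64-fold rise that 4.06% of the genes tested exceeded. In MRC5_coH69 it was 0.18 ± 0.04 (adjusted p = 0.00486), under the fold limit. In H196_Co against H196_Mo it was 0.73 ± 0.08 (adjusted p = 1.25e-06), a 1.66-fold rise.

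LDHB, the heart-type chain, lies on chromosome 12 from 21635342 to 21657971 in GRCh38.p13, the build of the deposited tables, and went the other way in the fibroblast. It was at 414, 413 and 434 FPKM in MRC5_Mo, at 381, 388 and 398 in MRC5_coH69, and at 285, 316 and 301 in MRC5_coH196. The 3 MRC5 groups did not overlap on this scale. On counts LDHB fell by 0.31 ± 0.04 on the log2 scale in MRC5_coH196 (adjusted p = 2.81e-07), which is under the fold limit, and the change of -0.11 ± 0.04 in MRC5_coH69 did not pass (adjusted p = 0.122). In H196 it was at 1030.2, 1010.2 and 1096 FPKM alone and at 1049, 957 and 862 beside MRC5, ranges that overlap, and its log2 fold change there was -0.05 ± 0.08 (adjusted p = 0.694).

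PDK1, the kinase isozyme known for its response to low oxygen, lies on chromosome 2 from 172539177 to 172672698. Its level was 13.5, 12.5 and 10.9 FPKM in MRC5_Mo, 11.3, 12.2 and 12.4 in MRC5_coH69, and 34.3, 39.5 and 37.8 in MRC5_coH196. In H196 it was 21.0, 19.7 and 18.7 FPKM alone and 34.5, 40.2 and 34.8 beside MRC5. The PDK1 levels of MRC5_coH196 and H196_Co overlapped in FPKM, at 37.2 ± 2.65 and 36.5 ± 3.20 (SD, n = 3 each), and did not overlap in CPM, at 166 to 190.5 and 117 to 142. The log2 fold change was 1.86 ± 0.06 in MRC5_coH196 (adjusted p = 3.77e-19) and 0.96 ± 0.08 in H196_Co (adjusted p = 3.10e-08), which 2.25% and 1.15% of the genes tested exceeded. In MRC5_coH69 it was -0.04 ± 0.07 (adjusted p = 0.769).

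PDK2, the most widely expressed isozyme, on chromosome 17 from 50093870 to 50112152, did not rise with PDK1. It was at 15.7, 15.3 and 17.1 FPKM in MRC5_Mo, at 15.2, 15 and 14.6 in MRC5_coH69, and at 11.7, 11.3 and 12 in MRC5_coH196. On counts it fell by 0.26 ± 0.06 on the log2 scale in MRC5_coH196 (adjusted p = 0.00072), under the fold limit, and its change of -0.09 ± 0.06 in MRC5_coH69 did not pass (adjusted p = 0.430). In H196 it was at 25.8, 29.6 and 28.0 FPKM alone and at 24.4, 26.1 and 29.1 beside MRC5, and these overlapping groups gave a log2 fold change of 0.05 ± 0.07 (adjusted p = 0.695).

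PDK3, an isozyme of high kinase activity on chromosome X from 24448139 to 24550466, was a low transcript in MRC5. Its expected counts were 74, 69 and 68 in MRC5_Mo, 72, 60 and 69 in MRC5_coH69, and 402, 369 and 390 in MRC5_coH196. The log2 fold change on counts was 2.62 ± 0.10 in MRC5_coH196 (adjusted p = 1.06e-17), a 6.13-fold rise that 1.02% of the genes tested exceeded, and -0.06 ± 0.13 in MRC5_coH69 (adjusted p = 0.861). In H196 the counts were 1042, 892 and 960 alone and 1348, 1423 and 1281 beside MRC5. They did not overlap, and the log2 fold change of 0.55 ± 0.08 (adjusted p = 6.13e-05) was just under the fold limit. Without H196_Mo replicate 1 it was 0.64 and past the limit.

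The size of the PDK3 rise in MRC5_coH196 depended on the unit. In FPKM PDK3 was at 1.05, 0.92 and 1.01 in MRC5_Mo and at 2.90, 2.75 and 2.24 in MRC5_coH196, a 2.65-fold ratio of means, where counts per library total gave a 5.44-fold ratio. A length can be read from each library as the count divided by the FPKM and the library total. For PDK3 it was 3629 to 3986 bases in MRC5_Mo, 3936 to 7528 in MRC5_coH69, 7249 to 9082 in MRC5_coH196 and 9684 to 11522 in H196 libraries. The implied length of PDK3 was thus longer in every MRC5_coH196 library than in every MRC5_Mo library, and longer still in H196. For LDHA it stayed between 1945 and 1972 bases in all 15 libraries, and for PDP1 between 3928 and 3965. How the authors' length term was set for each library was not tested. In MRC5_coH69 the PDK3 FPKM, at 0.78, 0.82 and 0.49, lay below MRC5_Mo, whereas the counts of both groups overlapped. The PDK3 difference between MRC5_coH196 and MRC5_Mo was 1.31 on log2(FPKM + 0.1) and 0.86 on log2(FPKM + 1), where the amount added is about the level of PDK3 in MRC5_Mo.

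**Figure D2:**
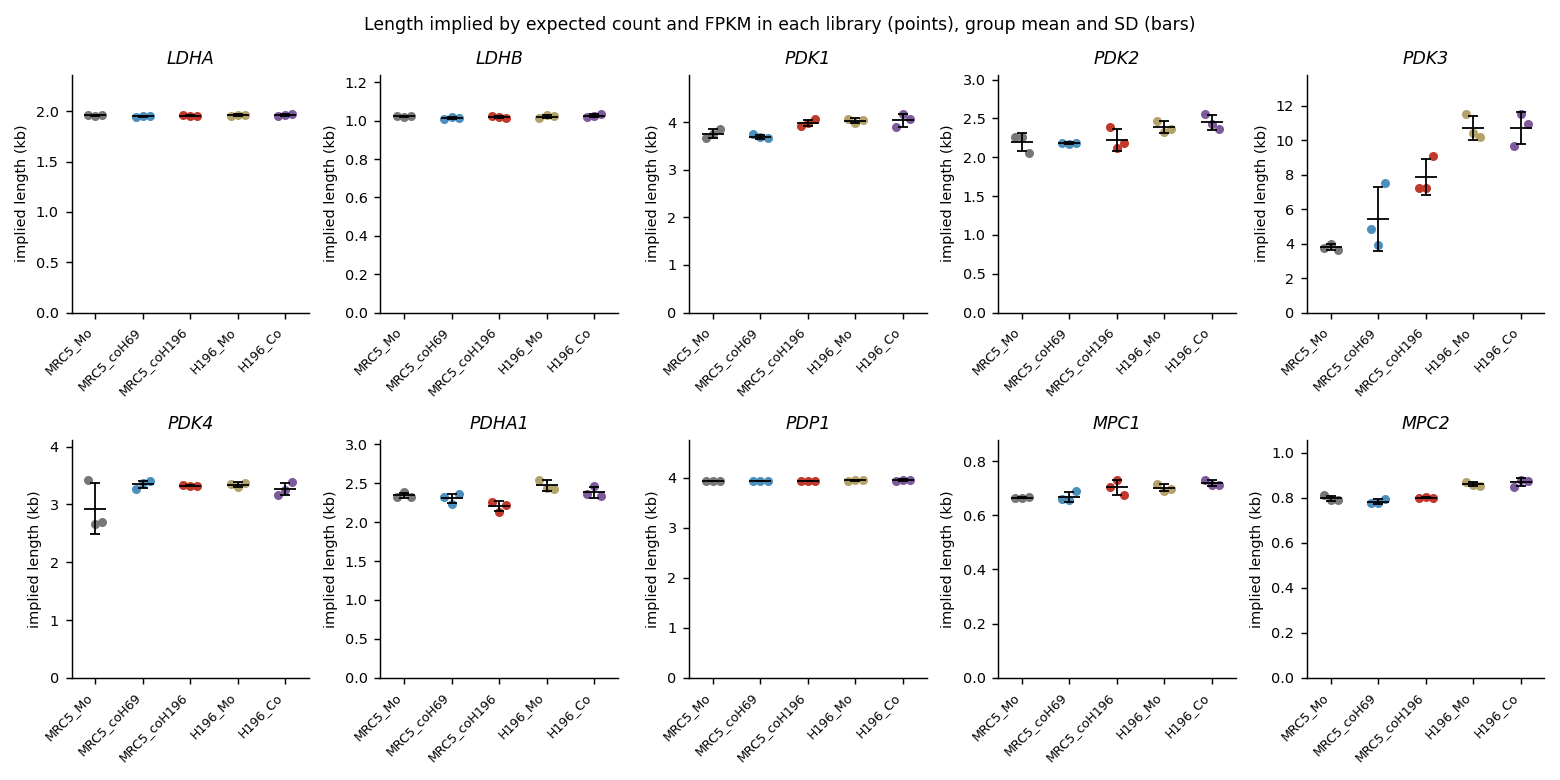
Length in kilobases implied by the expected count, the FPKM and the library total, with 1 point per library and the mean and SD of each group. LDHA and PDP1 are flat across the 5 groups, and PDK3 goes from 3.79 kb on average in MRC5_Mo to 7.86 kb in MRC5_coH196 and 10.7 kb in H196_Mo.

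PDK4, the isozyme induced by fasting in muscle and heart, lies on chromosome 7 from 95583499 to 95596516 and was barely detected outside MRC5_coH196. It had 9, 1 and 1 counts in MRC5_Mo, 5, 5 and 7 in MRC5_coH69, and 51, 65 and 49 in MRC5_coH196. The 165 counts of MRC5_coH196 against 11 of MRC5_Mo gave a 14.8-fold ratio per library total, with an exact 95% interval of 8.07 to 30.3 that covers counting error only. The 3 MRC5_coH196 libraries lay above all others, and most of the MRC5_Mo counts came from replicate 1. In FPKM it reached 0.77 to 1.06 in MRC5_coH196, still the lowest of the 4 kinases there. In H196 it had 4 to 7 counts alone and 6 to 8 beside MRC5, a ratio of 1.11 with an interval of 0.556 to 2.22.

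PDHA1, the subunit of the PDH complex that the kinases phosphorylate, lies on chromosome X from 19343906 to 19361718. It was at 29.4, 28.9 and 31.1 FPKM in MRC5_Mo, at 30.2, 29.7 and 28.4 in MRC5_coH69, and at 24.2, 25.1 and 23.3 in MRC5_coH196. On counts it fell by 0.22 ± 0.05 on the log2 scale in MRC5_coH196 (adjusted p = 0.00031), under the fold limit, and its change of -0.02 ± 0.05 in MRC5_coH69 did not pass (adjusted p = 0.828). H196 held more of it, at 63.8, 66.3 and 73.3 FPKM alone and 68.6, 64.6 and 67.5 beside MRC5, and its log2 fold change there was 0.01 ± 0.07 (adjusted p = 0.959).

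PDP1, the phosphatase that opposes the kinases, lies on chromosome 8 from 93857807 to 93926068 and set the lines apart more than the cultures. It was at 8.02, 7.77 and 7.17 FPKM in MRC5_Mo, at 7.72, 7.17 and 7.58 in MRC5_coH69, and at 6.24, 7.59 and 6.54 in MRC5_coH196, groups that overlap. Its log2 fold change in MRC5_coH196 was 0.00 ± 0.07 (adjusted p = 0.983), and in MRC5_coH69 it was -0.02 ± 0.07 (adjusted p = 0.917). In H196 it was at 52.6, 47.5 and 50.03 FPKM alone and at 34.0, 38.5 and 34.6 beside MRC5. There PDP1 fell by 0.41 ± 0.07 on the log2 scale (adjusted p = 0.000291), under the fold limit, and 97.4% of the genes tested had a higher log2 fold change.

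The carrier subunits moved in opposite directions in MRC5_coH196. MPC1, on chromosome 6 from 166364915 to 166383013, was at 13.5, 14.8 and 14.3 FPKM in MRC5_Mo, at 15.5, 16.9 and 14.9 in MRC5_coH69, and at 6.74, 7.78 and 7.60 in MRC5_coH196. These levels rested on 91 to 206 counts in a library. On counts MPC1 fell by 0.69 ± 0.11 on the log2 scale in MRC5_coH196 (adjusted p = 2.57e-06), and its difference of 0.17 ± 0.09 in MRC5_coH69 did not pass (adjusted p = 0.329). In H196 it was at 11.8, 11.9 and 12.8 FPKM alone and at 10.8, 9.43 and 11.2 beside MRC5, and the log2 fold change of -0.10 ± 0.12 did not pass (adjusted p = 0.592).

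MPC2, the partner subunit, lies on chromosome 1 from 167916675 to 167937072. It was at 38.8, 42.3 and 43.3 FPKM in MRC5_Mo, at 36.3, 35.9 and 34.6 in MRC5_coH69, and at 53.3, 59.7 and 58.1 in MRC5_coH196, and the 3 groups did not overlap. The log2 fold change was 0.64 ± 0.06 in MRC5_coH196 (adjusted p = 2.20e-10), and MPC2 fell by 0.23 ± 0.06 in MRC5_coH69 (adjusted p = 0.0194). The latter call was lost on log2(FPKM + 1) and without replicate 2 or 3 of MRC5_coH69 or of MRC5_Mo, with an adjusted p of up to 0.111. The rise in MRC5_coH196 was 0.45 on log2(FPKM + 1), which is under the fold limit on that scale, where the median of all genes tested was itself at -0.13. In H196 the level was 42.3, 36.1 and 40.5 FPKM alone and 43.5, 36.3 and 35.9 beside MRC5, and the log2 fold change was 0.05 ± 0.09 (adjusted p = 0.721).

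**Figure D3:**
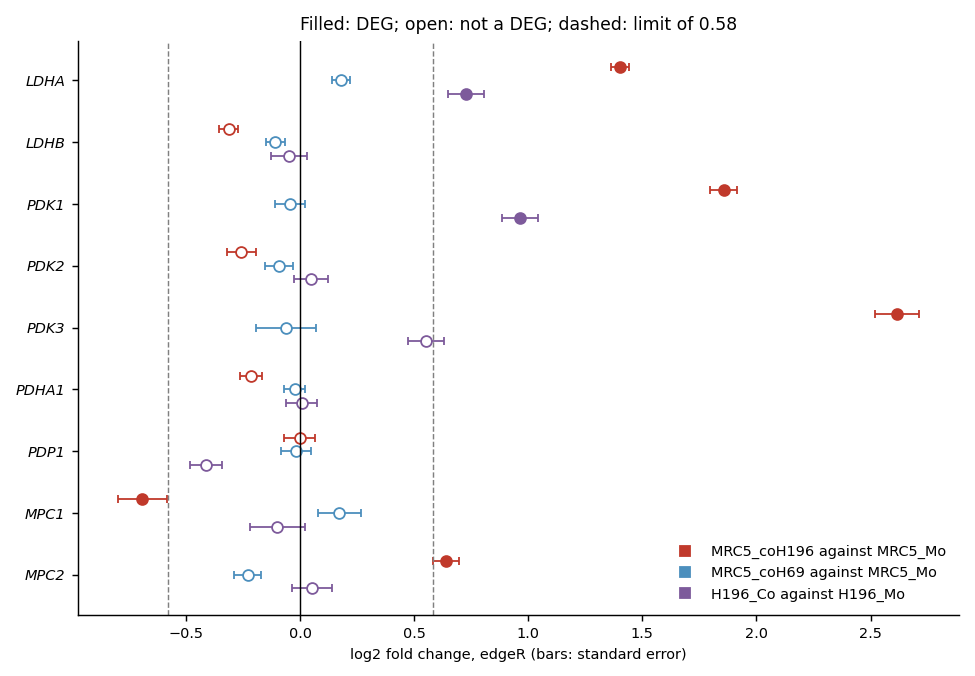
Log2 fold change with its standard error for the 9 genes other than PDK4 in 3 comparisons, with filled points for DEGs and dashed lines at a size of 0.58. MRC5_coH196 has points from -0.69 (MPC1) to 2.62 (PDK3), every MRC5_coH69 point is open, and LDHA and PDK1 are filled in H196_Co.

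Balances between genes were taken within each library as ratios of FPKM, which need no scaling between libraries. The 5 balances were compared in 4 pairs of groups, and groups of 3 libraries cannot give an exact two-sided permutation p below 0.1. Of these 20 tests, 17 had groups that did not overlap, each with p = 0.1 (exact permutation test, adjusted p = 0.118 over the 20), so that none passed and the balances are given as values. The tests share genes and libraries, and how often balances of other genes fail to overlap was not tested.

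LDHA exceeded LDHB in every MRC5 library, and the excess was largest beside H196. The ratio of LDHA to LDHB was 1.34, 1.38 and 1.32 in MRC5_Mo, 1.69, 1.60 and 1.62 in MRC5_coH69, and 4.59, 4.16 and 4.52 in MRC5_coH196. H196 cells were on the LDHB side when alone, with ratios of 0.781, 0.751 and 0.728, and on the LDHA side beside MRC5, with 1.29, 1.27 and 1.32. The ratio in H196_Co was thus close to that of MRC5_Mo in size. As a difference of mean log2 ratios the shift was 1.71 in MRC5_coH196 against MRC5_Mo, 0.28 in MRC5_coH69 against MRC5_Mo and 0.78 in H196_Co against H196_Mo. The ratio of LDHA to PDHA1 went from 18.4 to 19.8 in MRC5_Mo, through 20.9 to 22.7 in MRC5_coH69, to 52.5 to 58.6 in MRC5_coH196, and from 10.9 to 12.6 in H196_Mo to 16.8 to 19.7 in H196_Co.

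The leading kinase isozyme in FPKM differed between cultures. PDK2 held the largest share of the summed kinase FPKM in MRC5_Mo (51.6% to 58.9%), MRC5_coH69 (52.8% to 55.5%) and H196_Mo (49.1% to 54.4%). On expected counts, which are not scaled to transcript length, PDK1 was above PDK2 in these groups too. Its counts were 779 to 931 against 652 to 666 in MRC5_Mo, 811 to 851 against 596 to 636 in MRC5_coH69, and 1304 to 1374 against 1023 to 1192 in H196_Mo. PDK1 held the largest share in MRC5_coH196, with 69.0%, 72.3% and 71.6%, against 44.5%, 43.5% and 37.6% in MRC5_Mo and 41.4%, 43.5% and 45.03% in MRC5_coH69. In H196 the PDK1 share was 40.0%, 36.4% and 35.8% alone and 51.4%, 54.5% and 49.0% beside MRC5. The difference in mean share was 29.1 percentage points in MRC5_coH196 against MRC5_Mo, or 20.8 when counts were used in place of FPKM, and 14.3 in H196_Co against H196_Mo. PDK3 held 4.24% to 5.84% of the sum in MRC5_coH196 and 9.08% to 12.1% in H196, and PDK4 at most 1.94% in any library.

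The 4 kinases together stood at 28.7 to 30.5 FPKM in MRC5_Mo, 27.4 to 28.1 in MRC5_coH69 and 49.7 to 54.6 in MRC5_coH196, and at 52.2 to 54.3 in H196_Mo and 67.04 to 73.8 in H196_Co. Relative to the phosphatase PDP1, this sum was 3.80, 3.70 and 4.05 in MRC5_Mo, 3.55, 3.92 and 3.64 in MRC5_coH69, and 7.96, 7.19 and 8.07 in MRC5_coH196. H196 had less kinase for its PDP1, with ratios of 0.999, 1.14 and 1.04 alone and 1.97, 1.92 and 2.06 beside MRC5. The mean log2 ratio was higher by 1.01 in MRC5_coH196 and by 0.90 in H196_Co than in the mono-culture of the same line. In the fibroblast PDP1 itself did not pass the test, and in H196 it fell.

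The ratio of MPC1 to MPC2 was 0.348, 0.350 and 0.329 in MRC5_Mo, 0.427, 0.471 and 0.431 in MRC5_coH69, and 0.126, 0.130 and 0.131 in MRC5_coH196. The co-cultures of MRC5 thus lay on opposite sides of the mono-culture, by -1.41 and 0.37 in mean log2 ratio. In H196 the ratios of 0.278, 0.331 and 0.315 alone overlapped those of 0.248, 0.260 and 0.312 beside MRC5, with a difference of -0.18 (p = 0.2, exact permutation test).

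**Figure D4:**
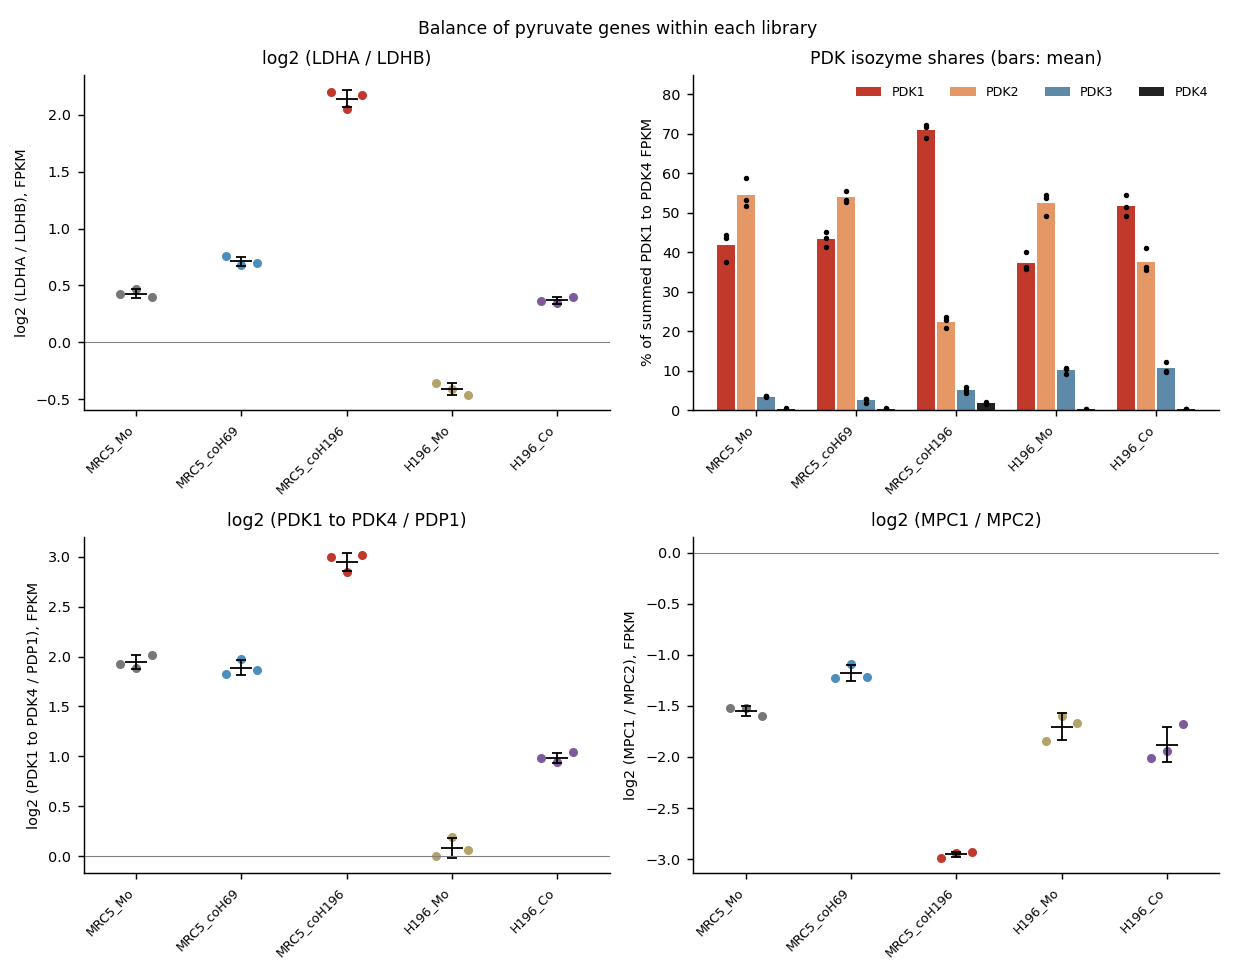
Balances within each library, with 1 point per library and the mean and SD of each group, as log2 ratios of FPKM for LDHA to LDHB, the summed kinases to PDP1 and MPC1 to MPC2, and as shares of the summed kinase FPKM (bars are means). PDK1 averages 71.0% in MRC5_coH196 and 41.9% in MRC5_Mo, and the MPC1 to MPC2 log2 ratio averages -2.95 in MRC5_coH196 against -1.55 in MRC5_Mo.

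Whether the fibroblast and the tumor cell responded unequally to each other was tested in 1 fit of all 15 libraries, as the log2 fold change of MRC5_coH196 against MRC5_Mo minus that of H196_Co against H196_Mo. PDK4 is again left out. The other 9 genes had an adjusted p under 0.05 there, where 51.2% of the 13585 genes tested did, and 4 of the 9 also differed by more than 0.58 (3 upward and 1 downward), where 24.7% did (12.1% upward and 12.6% downward). The response was larger in MRC5 for LDHA, by 0.65 ± 0.08 (adjusted p = 1.47e-07), for PDK1, by 0.87 ± 0.10 (adjusted p = 5.63e-08), and for PDK3, by 2.04 ± 0.13 (adjusted p = 5.68e-13). The PDK3 difference was 0.44 on log2(FPKM + 1), on which scale its level in MRC5_Mo is close to the amount added. It depended on the unit with nothing added too. The log2 ratio of mean FPKM was 1.40 in MRC5 and 0.48 in H196, where counts per library total gave 2.44 and 0.47. For MPC1 it was -0.62 ± 0.15 (adjusted p = 0.00135) and for MPC2 0.56 ± 0.10 (adjusted p = 5.24e-05), and neither subunit passed the test in H196 alone. The differences of LDHB, PDK2 and PDHA1 were at most 0.33 in size, and each missed the threshold when 1 of the MRC5_coH196 libraries was left out.

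The lines cultured alone were also compared. In H196_Mo against MRC5_Mo, 5 of the 9 genes were DEGs, 4 higher and 1 lower in H196, where 61.7% of all genes tested were DEGs (31.5% higher and 30.2% lower), and 8 of the 9 passed by the adjusted p alone, where 86.6% of all genes did. The share of DEGs was thus no higher than over all genes. On counts PDK3 was higher in H196 by 3.48 ± 0.10, PDP1 by 2.27 ± 0.06, LDHB by 0.87 ± 0.06 and PDHA1 by 0.82 ± 0.05 on the log2 scale, and MPC1 was lower by -0.59 ± 0.10 (adjusted p from 4.52e-23 to 5.81e-06). The PDK3 difference was smaller in FPKM, at 2.31 on log2(FPKM + 0.1) and 1.67 on log2(FPKM + 1). Its implied length averaged 3791 bases in MRC5_Mo and 10718 in H196_Mo. LDHA showed 0.03 ± 0.06 (adjusted p = 0.576) on counts and 0.47 on log2(FPKM + 1), a scale on which the median of all genes tested was 0.34 and on which MPC1, at -0.21, was under the fold limit. MPC1 was also under the limit with at least 10 counts required in every library and in 3 of the fits that left out a library, at -0.56 to -0.57. These values set one line in its own medium against another, and line and medium cannot be told apart.

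A further 25 genes that make, use or carry pyruvate or lactate were listed, of which 18 could be tested in each line. In MRC5_coH196 against MRC5_Mo, 3 were DEGs that were higher and 1 was a DEG that was lower, and 9 more passed by the adjusted p alone, 3 higher and 6 lower. These 4 DEGs of 18 and 13 passing of 18 stand beside 31.9% and 74.3% of all genes tested, and neither share was higher than that background. Their median log2 fold change was -0.04, against 0.00 for all genes tested. SLC16A3, the lactate exporter MCT4, rose by 0.98 ± 0.04 (adjusted p = 9.14e-17), from 179 to 191 FPKM in MRC5_Mo to 316 to 329 in MRC5_coH196. GPT2, the mitochondrial alanine aminotransferase, rose by 0.59 ± 0.06 (adjusted p = 2.37e-09), and PCK2, the mitochondrial enzyme that makes phosphoenolpyruvate, by 0.59 ± 0.07 (adjusted p = 1.63e-08), both barely past the limit.

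DLAT, the acetyltransferase core of the PDH complex, fell by 0.62 ± 0.06 on the log2 scale (adjusted p = 1.15e-09), from 14.2 to 14.5 FPKM in MRC5_Mo to 7.38 to 8.79 in MRC5_coH196. PDHB and DLD, other subunits of the complex, passed by the adjusted p alone, with PDHB at -0.46 ± 0.05 and DLD at -0.46 ± 0.05, while PDHX, at -0.05 ± 0.07, did not pass. Pyruvate carboxylase, PC, which makes oxaloacetate from pyruvate, was a DEG in MRC5_coH196 against MRC5_coH69, where it fell by 0.62 ± 0.09 (adjusted p = 7.94e-07), from 4.09 to 4.82 FPKM to 2.40 to 2.81.

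In MRC5_coH69 against MRC5_Mo none of these 18 genes was a DEG, and SLC16A7, at 0.27 ± 0.08, was the one that passed by the adjusted p (adjusted p = 0.0443). In H196_Co against H196_Mo, SLC16A3 was the 1 DEG of the 18, where 3.86% of all genes were DEGs, with a rise of 0.70 ± 0.08 (adjusted p = 1.36e-06) from 162 to 188 FPKM to 260.2 to 279, and PKM, GPT2 and PCK2 were higher and PDP2 lower by the adjusted p alone. The 4 PDH complex genes on this list did not pass in H196. The other lactate dehydrogenases had few counts in MRC5, where LDHC had at most 11 counts in a library, LDHD at most 7 and LDHAL6A at most 1. In H196 LDHD had 46 to 91 counts, and its log2 fold change of 0.33 ± 0.18 in H196_Co did not pass (adjusted p = 0.209). EMB, a partner protein of lactate transporters, was at 11.3 to 13.6 FPKM in H196_Mo and at 0.19 to 0.24 in MRC5_coH196, no higher than the 0.24 to 0.35 of MRC5_Mo.

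**Figure D5:**
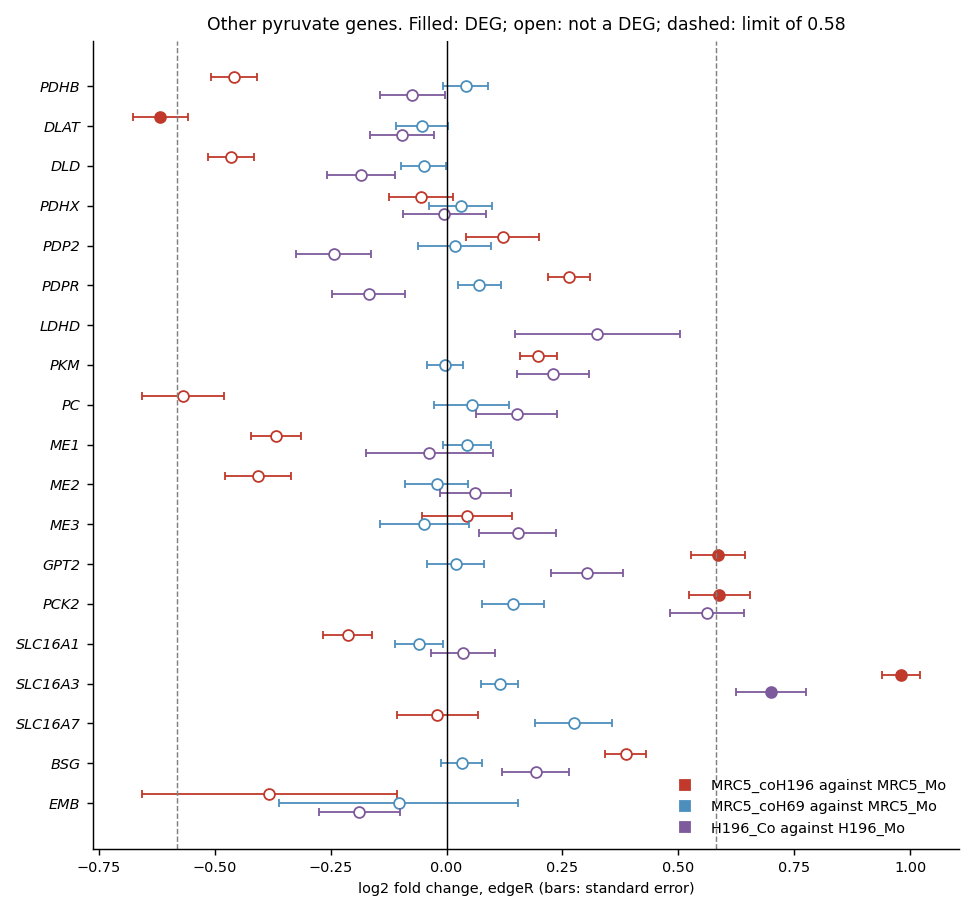
Log2 fold change with its standard error for the other pyruvate and lactate genes that could be tested, in 3 comparisons, with filled points for DEGs and dashed lines at a size of 0.58. SLC16A3 is filled at 0.98 in MRC5_coH196 and at 0.70 in H196_Co, and DLAT is filled at -0.62 in MRC5_coH196.

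The genes most like each DEG of the 10 were sought among 9491 genes by the root mean square difference in log2 CPM over the 15 libraries, each centred on the mono-culture of its line. LDHA was nearest to CLK3, LOC112694756 and CCN1, with differences of 0.10 to 0.11. PDK1 was nearest to WSB1, at 0.10, followed by GOLGA8A and CHAC1, both at 0.16. WSB1 was higher than in the mono-culture by 1.87 in MRC5_coH196 and by 1.16 in H196_Co, on average. PDK3 was nearest to STC1, at 0.12, then MME and SH3D21, and MPC2 to RGMB, CITED2 and NIPA1, with differences of 0.09 to 0.10. MPC1 and PDK4 were below the mean of 10 CPM that this search required.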

How the data were processed

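Total RNA was taken up with TRIzol, mRNA was enriched with oligo(dT) beads, and libraries were sequenced on a BGISEQ platform. Per the labels and the submitters' processing notes, reads were aligned with HISAT2 2.1.0 and Bowtie2 2.3.4.3, RSEM 1.3.1 is named, and the build is GRCh38.p13. Expected counts, as deposited, estimate the reads of each gene and are not normalized. FPKM, as deposited by the authors to 2 decimals, are scaled to transcript length and sequencing depth. The authors' fold changes and p-values and 18 (MRC5) and 12 (H196) other columns of single libraries were not used. LDHA was listed on an additional contig and is given no coordinates here.

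Expected counts were rounded and analysed with edgeR 4.0.16 in R 4.3.3 (TMM, filterByExpr, quasi-likelihood, two-sided, Benjamini-Hochberg over all genes tested), in 1 fit of the 9 MRC5 libraries, 1 of the 6 H196 libraries and 1 of all 15 over the 15320 genes in both tables. A standard error was obtained as the size of the log2 fold change over the root of its F statistic. limma 3.58.1 and DESeq2 1.42.0 served as alternatives. In data simulated for MRC5_coH196 against MRC5_Mo with 200 genes changed 2-fold, edgeR recovered 200 of 200 with 5 false calls among 12716 genes, and in those for H196_Co against H196_Mo 199 of 200 with 4 false calls among 12765. The changed genes were drawn above a floor of mean level, with equal numbers up and down. The real MRC5_coH196 against MRC5_Mo had 4092 DEGs, so these rates may not carry over to it or to low transcripts. Libraries of a group differed by more than sampling noise in every pair. Library totals of 16073597 to 19170560 limit what low transcripts can show. The genes, lists and tests were chosen with earlier results of these data known. Named were the 10 genes in every comparison, the other pyruvate genes that were DEGs within a line, and the 3 genes most like each DEG. Other genes named, among them SYP, COL1A2, EMB and the further lactate dehydrogenases, were chosen after their values were seen or come from the marker and pyruvate lists. Sequences are RefSeq's, from GRCh38.p14, and protein sequences were not used here.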

Additional observations from a re-analysis of the deposited data

Results flagged for a closer look

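The response of MRC5 to H196 minus that of H196 to MRC5, tested in edgeR with all 15 libraries, differed from 0 for each of the 9 genes other than PDK4, on a background of 51.2% of all genes tested. On the log2 scale it was 0.65 for LDHA, 0.87 for PDK1, 2.04 for PDK3, 0.38 for PDP1 and 0.56 for MPC2, and -0.29 for LDHB, -0.33 for PDK2, -0.25 for PDHA1 and -0.62 for MPC1. The PDK3 value was as low as 0.445 over the alternatives tried. The PDK4 value of 3.78 is not counted as a call, since PDK4 passed the filter on low counts through MRC5_coH196 alone. It rests on 4 to 8 counts in each H196 library and on 9, 1 and 1 in MRC5_Mo, and was 5.54 without MRC5_Mo replicate 1. PDP1 fell in H196 and did not pass the test in MRC5. LDHB missed the threshold without MRC5_coH196 replicate 1 (-0.20, adjusted p = 0.0611), PDK2 without replicate 2 (-0.21, adjusted p = 0.0698), and PDHA1 without replicate 2 (-0.19, adjusted p = 0.0664) or replicate 3 (-0.17, adjusted p = 0.0881). Their causes were not tested.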

How the results depend on the processing

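Over the alternatives tried, the member genes' log2 fold changes kept direction and side of the threshold in 771 instances, 32 changed sign, all of them without passing the test, and 15 lost and 3 gained significance. Among the 200 alternatives of the balances 1 changed sign, the PDK1 share in MRC5_coH69 against MRC5_Mo, which ran from -0.70 to 2.76 percentage points with single libraries left out. The 200 include pairing by replicate number for each of the 20 tests, which cannot change a difference of means.

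In H196_Co against H196_Mo, values near 0 changed sign on FPKM, to -0.066 and -0.064 for PDK2, -0.016 and -0.016 for PDHA1 and -0.041 and -0.040 for MPC2 (0.1 and 1 FPKM added), and PDHA1 was -0.0022 with DESeq2 size factors and -0.0023 with the DESeq2 Wald test. PDP1 in MRC5_coH196 against MRC5_Mo was 0.0028 with DESeq2 size factors, 0.0030 with the Wald test and 0.0041 with at least 10 counts in every library. Against MRC5_coH69 it was -0.14 and -0.13 on FPKM. With 1 library left out, the ranges were -0.13 to 0.0085 for LDHB, -0.0048 to 0.077 for PDK2, -0.027 to 0.059 for PDHA1 and -0.040 to 0.095 for MPC2 in H196, -0.072 to 0.053 (MRC5_coH196 against MRC5_Mo), -0.065 to 0.016 (MRC5_coH69 against MRC5_Mo) and -0.051 to 0.074 (MRC5_coH196 against MRC5_coH69) for PDP1, and -0.11 to 0.0096 for PDK1 and -0.11 to 0.00084 for PDK3 in MRC5_coH69 against MRC5_Mo. PDK4 in H196_Mo against MRC5_Mo ran from -0.036 to 2.16, the latter without MRC5_Mo replicate 1.

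With no fold limit, DEGs numbered 9522 in MRC5_coH196 against MRC5_Mo and 859 in MRC5_coH69 against MRC5_Mo. They numbered 9269 in MRC5_coH196 against MRC5_coH69 and 2538 in H196_Co against H196_Mo. With the limit of 0.58 these counts were 4092, 71, 3618 and 494. Of the 10 genes, 2 passed with no limit in MRC5_coH69, where 6.7% of all genes did, and 8 in H196_Mo against MRC5_Mo, where 86.6% did. In H196_Co 4 of the 9 tested passed, where 19.8% of all genes did. With a limit of 1 the DEGs were 1564, 9, 1353 and 147, with 0 of the 9 genes tested in H196_Co. In H196_Mo against MRC5_Mo 2 of the 10 genes were DEGs at this limit, where 5925 of the 13585 genes tested were. MPC1 and MPC2 were no longer DEGs at this limit in MRC5_coH196 against MRC5_Mo (-0.69 and 0.64) or against MRC5_coH69 (-0.86 and 0.87), whereas LDHA, PDK1 and PDK3 remained DEGs in both. The unequal responses numbered 3357 of the 13585 genes tested with a limit of 0.58, in place of 6958, and 5 of the 10 genes with PDK4 counted. Counting without PDK4 was chosen after seeing the data, and the counts of 6, 6 and 10 that include it became 5, 5 and 9. With at least 10 counts in every library, which removes PDK4, 5 genes were DEGs in MRC5_coH196 against MRC5_Mo and against MRC5_coH69, where 3644 and 3179 of the 12055 genes tested were. By this filter 9 responded unequally, where 6594 of the 11157 genes tested did. For MRC5_coH69 DESeq2 called 44 genes and limma on log2(FPKM + 1) called 18, and for H196_Co the latter called 195.

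The split of calls moved with limma on log2(FPKM + 1), which differs from edgeR in unit, added amount and test together, and not with DESeq2 size factors (2219 and 1864 in MRC5_coH196 against MRC5_Mo). On log2(FPKM + 1) the split of higher and lower DEGs in MRC5_coH196 against MRC5_Mo was 915 and 2082, in place of 2207 and 1885, in MRC5_coH196 against MRC5_coH69 821 and 1746 in place of 1943 and 1675, in MRC5_coH69 against MRC5_Mo 17 and 1 in place of 54 and 17, and in H196_Mo against MRC5_Mo 5277 and 2451 in place of 4279 and 4100. In H196_Co it was 306 and 111 on log2(FPKM + 0.1), in place of 417 and 77. MPC2 was not a DEG in MRC5_coH196 on either FPKM scale, and its fall in MRC5_coH69 missed the threshold there and without any of 4 single libraries (adjusted p up to 0.111).

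Libraries of the same number did not deviate together (correlations from -0.15 to 0.08), so the numbers were not taken to pair them. With the replicate block there were 4088 DEGs in MRC5_coH196 and 471 in H196_Co, and the numbers of member genes called did not change in any comparison. For the balances, pairing cannot change a difference of means, and a sign-flip test of 3 pairs cannot give a p below 0.25. Counts of 9 or fewer limit PDK4 outside MRC5_coH196.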
